A study of Mus musculus with 4 samples.

Results

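The kinesins are the microtubule motor family, taken here as every row of the deposited expression table whose symbol is Kif followed by a digit, or Kifc1, Kifc2 or Kifc3. The rule found 45 rows among the 52192 genes of the table. Of these, 41 encode kinesin motors, and the other 4 are Kif1bp, which encodes a protein that binds kinesin motors, the pseudogenes Kif4-ps and Kif22-ps, and Kif16bos, annotated as antisense. The motors were sorted into 13 mitotic kinesins, known chiefly for work on the spindle, on chromosomes or in cytokinesis, and 15 transport kinesins, known chiefly for moving cargo in interphase. The other 17 rows were kept apart as remaining members. RNA came from AML12, a hepatocyte line derived from a mouse carrying a TGF-alpha transgene. Cells infected with lentivirus for a short hairpin against Safb (shSafb, 2 libraries) were set against cells infected with a control hairpin (shCtrl, 2 libraries). Safb encodes a nuclear protein that binds both chromatin and RNA. Both groups were kept in medium with 10% fetal bovine serum, an insulin, transferrin and selenium supplement and 0.1 uM dexamethasone, a glucocorticoid, and were collected on day 5. The labels give 1 hairpin name per group and no target site, and do not say that the libraries of a group were separate cultures, so each p-value covers no more than the spread of these libraries, which may be technical.

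Kinesins use ATP to pull on microtubules. Most walk toward the plus end with a cargo bound to the tail, some walk toward the minus end, and others do not walk but take subunits off microtubule ends. Dividing cells use a set of them to build a bipolar spindle, to move and align chromosomes and to cut the midbody, and the genes of that set are known to peak with the late cell cycle. Hepatocytes, which are polarised between the canaliculus and the blood, use the transport set to carry organelles, endosomes and membrane proteins.

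Levels are in TPM, which corrects the reads of a gene for its length and for the library's total. They can thus be compared between genes of a library. Between libraries they are shares of a total, so a large change in abundant genes can shift the values of others. The tests therefore used TPM scaled by median ratios, while the TPM printed here are unscaled. TPM keeps no read totals, and the depth is unknown. Safb itself fell to 15.8 and 15.0 TPM in the shSafb libraries, against 23.8 and 23.3 TPM in the shCtrl libraries (log2 difference -0.56 ± 0.07, SE; limma, Benjamini-Hochberg adjusted p = 0.00411). The 9 hepatocyte markers were all above 1 TPM in every library. Of them, 4 were called higher in shSafb, 2 lower and 3 not called, beside 21.9% higher and 22.4% lower of all tested genes. These markers summed to 9758 and 9707 TPM in shSafb and 5667 and 5516 TPM in shCtrl. Of the sums, Trf, the transferrin gene, gave 6814 and 6778 TPM in shSafb and 2453 and 2418 TPM in shCtrl. Alb, the albumin gene, had 122 and 127 TPM in shSafb and 378 and 345 TPM in shCtrl. Afp had the largest log2 difference of the 9 (3.18 ± 0.08), with 27.7 and 26.9 TPM in shSafb and 2.25 and 2.08 TPM in shCtrl. Mitochondrial genes took 0.318% and 0.343% of TPM in shSafb and 0.845% and 0.703% in shCtrl, and the part of these shifts in the kinesin values was not tested. Markers of fibroblasts (7 genes), leukocytes (6) and endothelium (5) summed in shSafb to 1.79 to 2.19, 0.915 to 1.37 and 0.0349 to 0.286 TPM. In shCtrl they summed to 1.76 to 1.86, 1.27 to 1.32 and 0.174 to 0.504 TPM, with Lum, Cd3e, Itgam, Adgre1, Cdh5 and Kdr among those listed at 0 in all libraries. Of the 45 kinesin rows, 32 had a mean of at least 1 TPM over the 4 libraries and were tested, and 31 of these encode motors. Of the 13 that were not tested, 7 were listed at 0 in every library: Kif2b, Kif19a, Kif26a, Kif27, Kif4-ps, Kif22-ps and Kif16bos. The other 6 were Kif1a, Kif5a, Kif17, Kif26b, Kif21b and Kif28, with Kif21b at 0.714 and 0.866 TPM in shSafb and 0.565 and 0.429 TPM in shCtrl.

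The 12 tested mitotic kinesins were all higher in shSafb, 10 of them by more than 1 on the log2 scale, and 0 were lower. Over all 13111 genes tested, 44.3% were called in either direction. The share called higher was 21.9% and the share called lower 22.4%, and 3.53% were called higher by more than 1. The median log2 difference was 1.30 for the mitotic kinesins and 0.00 for all tested genes. A call is an adjusted p under 0.05 in limma on log2(scaled TPM + 1), adjusted over all tested genes, and a difference on that scale is smaller than that of the TPM themselves for genes of low level. For each of the 12, both shSafb values lay above both shCtrl values, as they did for 35.5% of tested genes, and the mean level was above 1 TPM in either group. In bulk RNA, more cells in the division phases and more RNA of these genes per cell cannot be told apart.

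**Figure D1:**
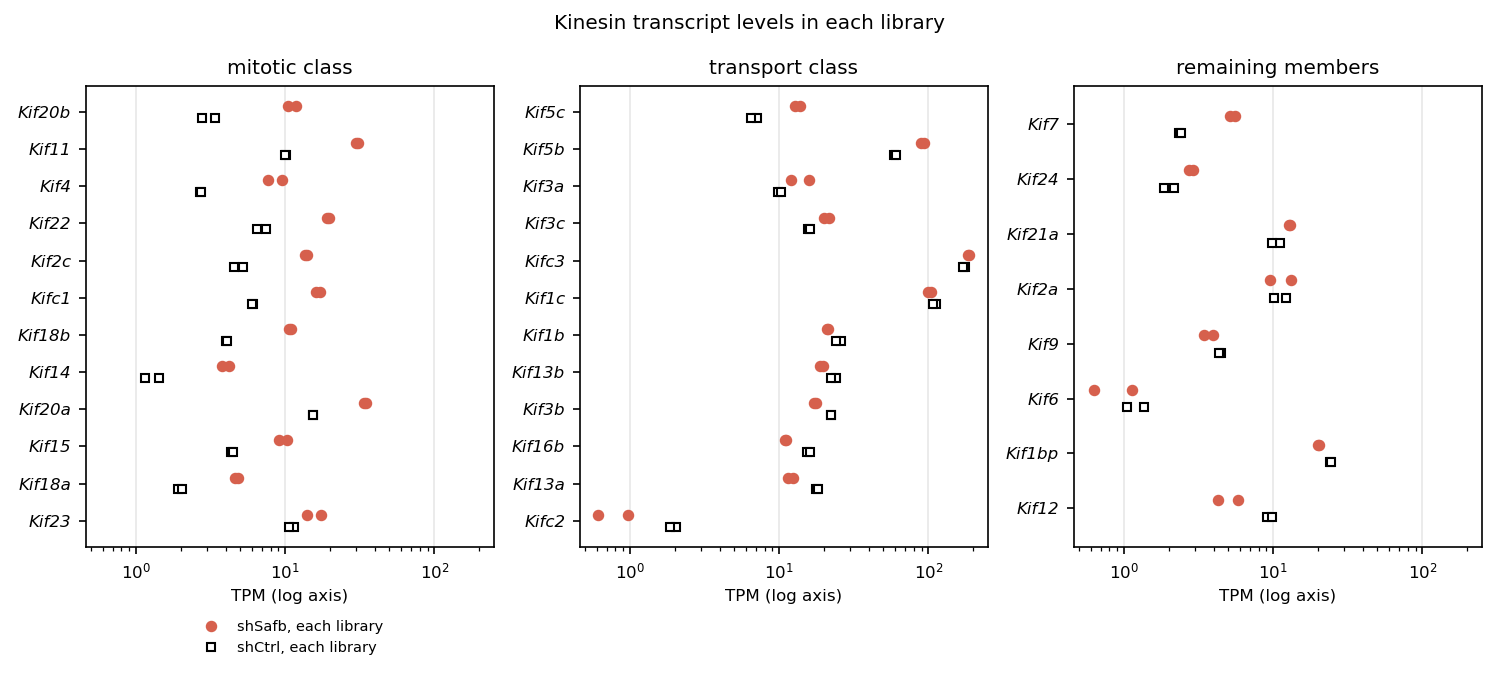
TPM on a log axis for each tested kinesin row, by class; filled circles are the 2 shSafb libraries and open squares the 2 shCtrl libraries. The 12 mitotic kinesins have their circles to the right of their squares, while the transport class holds Kifc3 and Kif1c near 100 TPM or above in both groups and has genes on either side.

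The motors that set up spindle bipolarity and its poles were higher by differing amounts. Kif11, the plus-end motor that slides antiparallel microtubules apart to make the spindle bipolar (ENSMUSG00000012443; mm10 chromosome 19, 37376403 to 37421859, plus strand), had 31.0 and 30.1 TPM in shSafb, against 10.2 and 9.97 TPM in shCtrl. The groups did not overlap, and the mean was 30.5 ± 0.633 TPM in shSafb and 10.1 ± 0.132 TPM in shCtrl (SD, n = 2 each), 3.03-fold higher (log2 difference 1.53 ± 0.07, limma adjusted p = 0.000636). Kif15, which can help to hold the spindle bipolar beside Kif11, had 9.09 and 10.3 TPM in shSafb and 4.32 and 4.49 TPM in shCtrl, a difference of 1.01 ± 0.11 (limma adjusted p = 0.00310). The minus-end motor Kifc1, which bundles microtubules and focuses the poles, had 16.1 and 17.1 TPM in shSafb and 6.05 and 6.01 TPM in shCtrl. It was 2.76-fold higher (1.35 ± 0.08, limma adjusted p = 0.000919). Its copy Kifc5b, which matches 2312 bases of a Kifc1 transcript at 96.8% identity, had 6.51 and 7.08 TPM in shSafb and 3.11 and 3.28 TPM in shCtrl, so reads may be shared between them. Summed, Kifc1 and Kifc5b had 22.6 and 24.2 TPM in shSafb against 9.17 and 9.29 TPM in shCtrl.

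The mitotic depolymerase and length regulators rose as well. Kif2c takes tubulin off microtubule ends at kinetochores and corrects faulty attachments. It had 13.98 and 13.5 TPM in shSafb and 5.22 and 4.52 TPM in shCtrl (1.35 ± 0.09, limma adjusted p = 0.00115). Kif18a, which damps the swings of chromosomes on the metaphase plate, had 4.59 and 4.80 TPM in shSafb and 1.93 and 2.04 TPM in shCtrl (0.95 ± 0.11, limma adjusted p = 0.00419). Its relative Kif18b, which trims astral microtubules, had 10.7 and 10.9 TPM in shSafb and 4.002 and 4.06 TPM in shCtrl (1.25 ± 0.09, limma adjusted p = 0.00128). Kif18b was above Kif18a in level in every library.

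The chromosome-bound motors, or chromokinesins, differed by about as much. Kif22, which pushes chromosome arms toward the plate, had 19.6 and 19.2 TPM in shSafb and 6.49 and 7.41 TPM in shCtrl (1.38 ± 0.10, limma adjusted p = 0.00138). Kif4, which binds condensed chromatin and with Prc1 sets the length of the central spindle, had 9.60 and 7.70 TPM in shSafb and 2.70 and 2.71 TPM in shCtrl (1.39 ± 0.13, limma adjusted p = 0.00253). The shSafb libraries were farther apart for Kif4 than the shCtrl libraries, and the lower of them was still above both shCtrl values. Pdzd11, on the opposite strand to Kif4, shares 15.1% of its exonic bases and had 26.2 and 29.9 TPM in shSafb and 29.3 and 29.3 TPM in shCtrl. The sources used here do not say whether the counting used strand, so reads of overlapping genes may have been mixed.

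Cytokinesis motors held both the largest and the smallest difference of the class. Kif20b, which acts late in abscission (ENSMUSG00000024795; chromosome 19, 34922361 to 34975745, plus strand), had 11.8 and 10.5 TPM in shSafb against 3.37 and 2.79 TPM in shCtrl. It was 3.62-fold higher, with a log2 difference of 1.60 ± 0.12 (limma adjusted p = 0.00135). Kif20a, which carries the chromosome passenger complex to the midzone, was the most abundant of the class in both groups, at 33.8 and 34.8 TPM in shSafb and 15.4 and 15.5 TPM in shCtrl (1.13 ± 0.06, limma adjusted p = 0.000863). Cdc23 overlaps 29.3% of its exonic bases on the opposite strand, at 25.6 and 24.7 TPM in shSafb and 30.2 and 25.2 TPM in shCtrl. Kif14, a midbody motor that recruits citron kinase, was the least abundant, at 4.19 and 3.76 TPM in shSafb and 1.42 and 1.15 TPM in shCtrl (1.14 ± 0.13, limma adjusted p = 0.00390). Kif23, the motor subunit of centralspindlin, had 17.3 and 14.1 TPM in shSafb and 11.4 and 10.6 TPM in shCtrl, only 1.42-fold higher (0.49 ± 0.12, limma adjusted p = 0.0272). Its groups did not overlap, but it was not called on omitting shCtrl replicate 1 (limma adjusted p = 0.0898), shCtrl replicate 2 (0.101) or shSafb replicate 1 (0.0792). Its adjusted p from limma ran from 0.0228 to 0.101 over 12 alternatives. The calls of the other 11 mitotic kinesins were kept in all 12 alternatives. The 95% interval of Kif23 (0.19 to 0.80) lay below those of Kif11 (1.36 to 1.71) and Kif20b (1.29 to 1.90), a difference between members that was not tested.

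**Figure D2:**
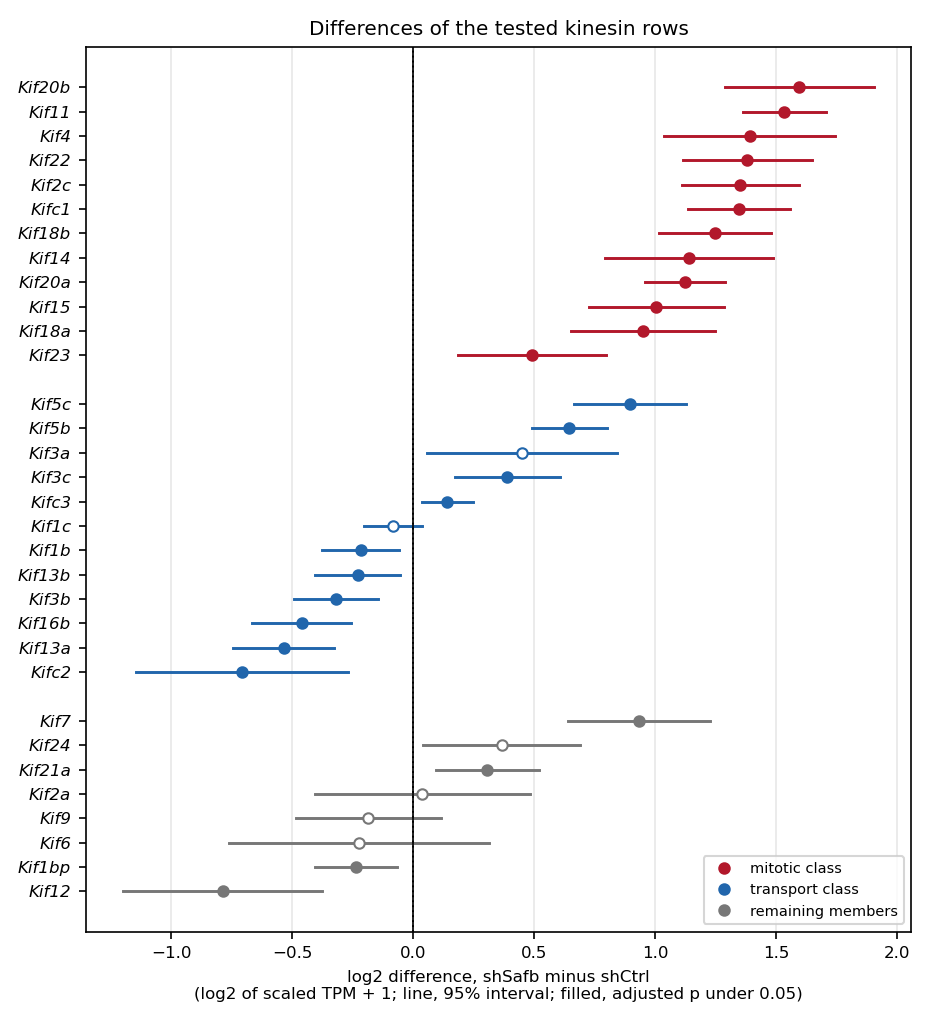
Log2 difference (shSafb minus shCtrl, on log2 of scaled TPM + 1) of the 32 tested rows with its 95% interval from limma; filled points have an adjusted p under 0.05, and the dotted line, which falls on 0, is the median of all tested genes. The mitotic class spans 0.49 to 1.60 and the transport class -0.71 to 0.90.

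Because the mitotic members moved together, their promoters are shown. RefSeq promoter windows on GRCm38.p6 (250 bases before to 50 after an annotated start) were matched by symbol for 11 of the 12 tested mitotic kinesins, and for 8 transport and 7 remaining tested members. The CHR (cell cycle genes homology region, searched as TTTGAA and TTCGAA) is known to bind the complexes that hold late cell cycle genes off in resting cells and switch them on before mitosis. It often lies near the start, downstream of CCAAT boxes, which bind the factor NF-Y. The stretches below run 5′ to 3′ along the gene from position -80 to position 29, with the start at 0, with every match on either strand in capitals. TTCAAA is the CHR and ATTGG the CCAAT box read on the other strand, and GCGCCAAA is an E2F motif read likewise. Kif11 (chr19:37376302-37376411, plus strand), Kif22 (chr7:127042391-127042500, minus strand), Kifc1 (chr17:33890604-33890713, minus strand), Kif4 (chrX:100625985-100626094, plus strand) and Kif18b (chr11:102925095-102925204, minus strand) have a CHR downstream of a CCAAT box. Kif20b (chr19:34922278-34922387, plus strand) has a CHR repeated in tandem. Kif23 (chr9:61946770-61946879, minus strand) and Kif18a (chr2:109280658-109280767, plus strand) are the mitotic members with the smallest differences. Kif5c (chr2:49619206-49619315, plus strand) and Kif13a (chr13:46929689-46929798, minus strand) are transport members that were higher and lower, and hold no match.
Kif11: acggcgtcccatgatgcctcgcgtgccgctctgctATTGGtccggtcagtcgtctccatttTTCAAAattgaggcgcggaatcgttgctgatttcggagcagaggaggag
Kif22: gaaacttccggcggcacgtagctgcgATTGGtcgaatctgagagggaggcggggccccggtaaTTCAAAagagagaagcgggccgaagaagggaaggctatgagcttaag
Kifc1: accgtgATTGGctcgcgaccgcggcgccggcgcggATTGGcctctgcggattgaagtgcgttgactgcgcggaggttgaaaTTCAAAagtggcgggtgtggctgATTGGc
Kif4: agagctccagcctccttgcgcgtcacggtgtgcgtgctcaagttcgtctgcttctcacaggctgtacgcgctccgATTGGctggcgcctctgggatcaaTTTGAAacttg
Kif18b: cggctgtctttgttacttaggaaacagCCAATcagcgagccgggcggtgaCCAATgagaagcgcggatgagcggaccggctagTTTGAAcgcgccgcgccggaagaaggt
Kif20b: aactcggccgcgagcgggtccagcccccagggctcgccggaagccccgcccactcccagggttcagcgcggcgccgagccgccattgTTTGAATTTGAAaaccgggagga
Kif23: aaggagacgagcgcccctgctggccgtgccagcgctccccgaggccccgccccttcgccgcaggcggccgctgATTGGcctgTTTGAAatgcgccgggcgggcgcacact
Kif18a: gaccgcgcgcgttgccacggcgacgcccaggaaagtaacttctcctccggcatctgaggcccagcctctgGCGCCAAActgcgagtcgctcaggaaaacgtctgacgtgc
Kif5c: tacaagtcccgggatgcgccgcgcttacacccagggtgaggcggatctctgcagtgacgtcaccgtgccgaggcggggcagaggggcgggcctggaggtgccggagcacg
Kif13a: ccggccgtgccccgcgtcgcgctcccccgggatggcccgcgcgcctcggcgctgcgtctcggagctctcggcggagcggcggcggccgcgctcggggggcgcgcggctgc

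A CHR match was present in 10 of the 11 mitotic windows, in 0 of the 9 transport windows (8 genes, with 2 windows for Kif1b) and in 1 of the 9 remaining windows (7 genes), against 19.2% of all 32851 windows of the same length. Within 30 bases of the start it was present in 8 of the 11 mitotic windows and in 3.45% of all windows. In 6 of these 8 a CCAAT box lay upstream of it, with first bases 9 bases apart in Kif23, 24 in Kif4, 26 in Kif11, 33 in Kif18b, 37 in Kif22 and 46 in Kifc1. Kif14 and Kif2c had a CHR match only at -228 and -103. Their windows surround starts that lie inside the annotated genes. That of Kif14 is chr1:136467598-136467897, plus strand, and its gene begins at 136466343. That of Kif2c is chr4:117178723-117179022, minus strand, and its gene begins at 117182639. The window of Kif4, counted among the 8, also lies wholly inside its gene. It is chrX:100625815-100626114, plus strand, and the gene begins at 100625737. In Kif15, Kif22 and Kifc1 the start of the window also falls inside the gene, but nearer to where the gene begins. Which start is used in these cells was not tested. CCAAT was found in 7 of the 11 mitotic windows, 4 of the 9 transport windows and 37.4% of all windows. The 2 windows of Kif1b overlap and hold the same CCAAT boxes, so the transport count includes that gene 2 times. E2F motifs (TTTGGCGC, TTTCGCGC, TTTCCCGC and TTTGCCGC, both strands) were found in the windows of Kif15 and Kif18a and in 2.26% of all windows. Kif18a, the mitotic member without a CHR match, rose by 0.95 on the log2 scale, more than Kif23, which has one. The single remaining member with a CHR match was Kif24, at position -26 with CCAAT boxes upstream, and Kif7, described below, had no match to any of the motifs. A match is a string of letters and shows neither binding nor use.

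**Figure D3:**
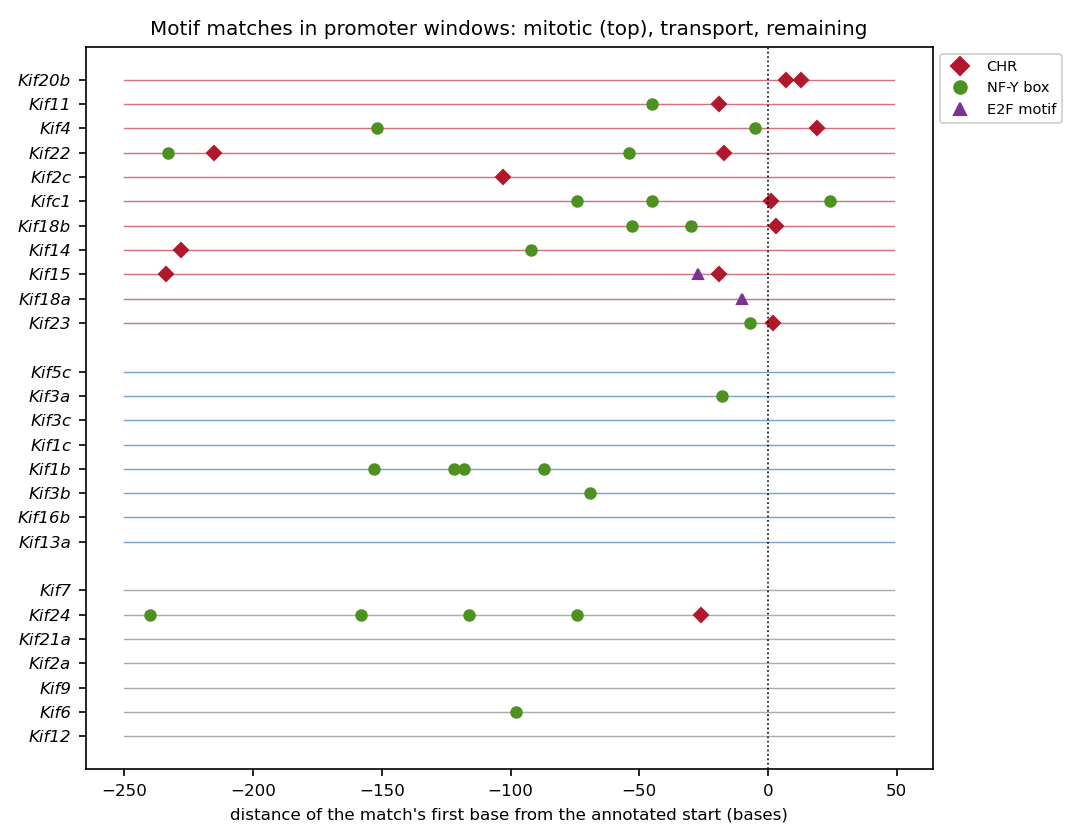
Position of each motif match from the annotated start (bases, negative upstream) in the promoter windows of tested members, 1 line per gene, mitotic at the top, then transport, then remaining members; NF-Y boxes are CCAAT matches, and Kif1b, Kif2a and Kif9 overlay 2 windows each. CHR matches stand within 30 bases of the start in 8 of the 11 mitotic lines and in 0 transport lines.

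The transport kinesins split. Of 12 tested, 4 were higher in shSafb, 6 lower and 2 not called, beside 21.9% and 22.4% of all tested genes, and the median log2 difference was -0.15. The groups did not overlap for 12 of the 12, with 5 above and 7 below, beside 35.5% and 39.3% of all tested genes. The 3 untested members, Kif1a, Kif5a and Kif17, best known from neurons, were under 1 TPM in every library. The largest rise was of Kif5c, at 1.95-fold. The falls called in members above 1 TPM in both groups reached 1.51-fold, in Kif13a. The counts depended on the libraries. Without shCtrl replicate 1 there were 2 higher and 2 lower, without shCtrl replicate 2 there were 3 and 2, without shSafb replicate 1 there were 2 and 2, and without shSafb replicate 2 there were 4 and 1. Kif5b and Kif5c (higher) and Kif13a (lower) kept their calls in all 12 alternatives.

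Kinesin-1, the conventional kinesin, carries mitochondria, lysosomes and mRNA, with heavy chains from the Kif5 genes. Kif5b, the form found in most tissues, had 94.1 and 89.7 TPM in shSafb against 58.6 and 60.2 TPM in shCtrl, with no overlap. It was 1.55-fold higher (log2 difference 0.65 ± 0.06, limma adjusted p = 0.00226). Kif5c (chromosome 2, 49619298 to 49774778, plus strand), best known from neurons, had 13.7 and 12.7 TPM in shSafb and 7.11 and 6.43 TPM in shCtrl, a difference of 0.90 ± 0.09 (limma adjusted p = 0.00263). The summed heavy chains reached 108 and 102 TPM in shSafb, against 65.8 and 66.7 TPM in shCtrl. The light chain genes Klc1 to Klc4, whose proteins link the heavy chains to cargo, went the other way as a sum, to 66.7 and 64.7 TPM in shSafb against 95.8 and 91.4 TPM in shCtrl. Light chain transcripts were thus more abundant than heavy chain transcripts in shCtrl and less abundant in shSafb, a comparison of sums chosen after their values were seen.

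The kinesin-2 genes, whose products carry cargo in cilia and along cytoplasmic microtubules, did not move as a unit. Kif3a and Kif3b form the motor with the accessory protein KAP3, and Kif3c is an alternative partner of Kif3a. Kif3b fell to 17.6 and 17.0 TPM in shSafb, against 22.2 and 22.2 TPM in shCtrl (-0.32 ± 0.07, limma adjusted p = 0.0184), and was not called on omitting shCtrl replicate 1 (0.0508), shCtrl replicate 2 (0.0674), shSafb replicate 1 (0.0693) or shSafb replicate 2 (0.0911). Kif3c was higher, at 21.7 and 19.8 TPM in shSafb and 15.6 and 16.2 TPM in shCtrl (0.39 ± 0.08, limma adjusted p = 0.0199), and was not called on omitting shCtrl replicate 1 (0.0803) or shSafb replicate 1 (0.0877). The antisense gene 1110002L01Rik overlaps 35.3% of the exonic bases of Kif3c and had 9.35 and 8.28 TPM in shSafb and 9.67 and 8.90 TPM in shCtrl. Kif3a had 15.9 and 12.01 TPM in shSafb and 9.78 and 10.3 TPM in shCtrl and was not called (0.45 ± 0.15, limma adjusted p = 0.0659; 95% interval 0.06 to 0.84), though it was called on omitting shSafb replicate 2 (0.0274). The ratio of Kif3a to Kif3b TPM was 0.904 and 0.706 in shSafb against 0.441 and 0.462 in shCtrl. Kifap3, which encodes KAP3 and was picked after its values were seen, had 21.4 and 21.1 TPM in shSafb and 26.9 and 26.1 TPM in shCtrl (-0.28 ± 0.06, limma adjusted p = 0.0188).

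Of the 5 tested transport members of kinesin-3, which carry endosomes, vesicles and mitochondria as single, highly processive motors, 4 were lower and 0 higher, where 22.4% of all tested genes were lower and 21.9% higher. Kif13a, which moves recycling endosomes (ENSMUSG00000021375; chromosome 13, 46749087 to 46929867, minus strand), had 12.3 and 11.5 TPM in shSafb against 17.8 and 18.2 TPM in shCtrl. Its mean was 11.9 ± 0.587 TPM in shSafb and 18.02 ± 0.312 TPM in shCtrl (SD, n = 2 each), with a difference of -0.53 ± 0.08 (limma adjusted p = 0.00748). Kif16b, which carries early endosomes, had 10.97 and 11.1 TPM in shSafb and 15.5 and 16.1 TPM in shCtrl (-0.46 ± 0.08, limma adjusted p = 0.0108), and was not called on omitting shSafb replicate 1 (0.0546) or shSafb replicate 2 (0.0506). These endosome motors showed the largest falls of the subfamily. Kif13b, whose cargo includes the scaffold Dlg1, had 18.8 and 19.7 TPM in shSafb and 24.1 and 22.1 TPM in shCtrl (-0.23 ± 0.07, limma adjusted p = 0.0485). Kif1b, a carrier of mitochondria and vesicles, had 20.9 and 21.2 TPM in shSafb and 26.0 and 24.2 TPM in shCtrl (-0.22 ± 0.06, limma adjusted p = 0.0429). Neither call outlasted the omission of any library. The limma adjusted p of Kif13b was 0.144 without shCtrl replicate 1, 0.0816 without shCtrl replicate 2, 0.195 without shSafb replicate 1 and 0.119 without shSafb replicate 2. That of Kif1b was 0.126 without shCtrl replicate 1, 0.0807 without shCtrl replicate 2, 0.165 without shSafb replicate 1 and 0.143 without shSafb replicate 2. Kif1c, which carries integrin-bearing vesicles, was the most abundant of the subfamily, at 104 and 99.8 TPM in shSafb and 112 and 108 TPM in shCtrl, and was not called (-0.08 ± 0.05, limma adjusted p = 0.200; 95% interval -0.20 to 0.04).

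The minus-end motors of the transport class went apart. Kifc3, which works at apical membranes and cell junctions of epithelia, was the most abundant kinesin in every library, with 188 and 185 TPM in shSafb and 175 and 170 TPM in shCtrl. The groups did not overlap, but the difference was 1.08-fold (0.14 ± 0.04, limma adjusted p = 0.0453) and it was not called in 10 of 12 alternatives, among them omitting shCtrl replicate 1 (0.132), shCtrl replicate 2 (0.107), shSafb replicate 1 (0.186) or shSafb replicate 2 (0.127). Kifc2, known from neurons, fell to 0.967 and 0.616 TPM in shSafb against 2.04 and 1.85 TPM in shCtrl (-0.71 ± 0.17, limma adjusted p = 0.0265). It passed the filter on low values through its shCtrl level, and was not called on omitting shCtrl replicate 1 (limma adjusted p = 0.113), shCtrl replicate 2 (0.0924) or shSafb replicate 2 (0.0909). Cyhr1, on the opposite strand, shares 4.1% of the exonic bases of Kifc2. Its level was far above that of Kifc2, at 86.0 and 84.8 TPM in shSafb and 100 and 96.5 TPM in shCtrl. Reads of Cyhr1 may thus have been counted for Kifc2, which was not tested. Kifc3 and Kif1c together made up 56.2% and 56.9% of the transport class TPM in shSafb and 59.0% and 58.4% in shCtrl.

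Summed over each class, the mitotic kinesins had 182 and 177 TPM in shSafb against 72.5 and 71.3 TPM in shCtrl. The transport kinesins had 519 and 500.4 TPM in shSafb against 486 and 475 TPM in shCtrl, a far smaller shift. That sum includes Kif5b, with a mean of 91.9 TPM in shSafb and 59.4 TPM in shCtrl. Of the 12 tested members, 5 were higher in TPM and 7 lower, so the sum does not describe most of them. The mitotic sum was therefore 35.0% and 35.3% of the transport sum in shSafb, against 14.9% and 15.0% in shCtrl. Of the TPM of all 41 motors, mitotic kinesins took 24.4% and 24.6% in shSafb and 12.05% and 12.2% in shCtrl, and transport kinesins 69.6% and 69.7% in shSafb and 80.7% and 81.0% in shCtrl. These sums were not tested and are given as values per library; the groups did not overlap for any of them.

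Among the remaining members, 2 of 8 tested were higher, 2 lower and 4 not called, shares near the 21.9% and 22.4% of all tested genes. Kif7, a kinesin of the ciliary tip that tunes Hedgehog signalling (ENSMUSG00000050382; chromosome 7, 79698098 to 79715720, minus strand), had 5.59 and 5.13 TPM in shSafb against 2.34 and 2.41 TPM in shCtrl. It was 2.26-fold higher (0.93 ± 0.11, limma adjusted p = 0.00419), a size close to that of Kif18a, and kept its call in all 12 alternatives. Ticrr overlaps 1.11% of its exonic bases on the opposite strand and had 3.52 and 2.86 TPM in shSafb and 1.45 and 1.90 TPM in shCtrl. Kif21a, which slows microtubule growth at the cell cortex, had 12.7 and 12.98 TPM in shSafb and 11.04 and 9.77 TPM in shCtrl (0.31 ± 0.08, limma adjusted p = 0.0363), and was not called in 9 of 12 alternatives, among them omitting shCtrl replicate 1 (0.0609), shCtrl replicate 2 (0.125), shSafb replicate 1 (0.115) or shSafb replicate 2 (0.128). Kif24, which restrains cilium growth at the mother centriole, had 2.73 and 2.92 TPM in shSafb and 2.15 and 1.87 TPM in shCtrl and was not called (0.37 ± 0.12, limma adjusted p = 0.0691; 95% interval 0.04 to 0.69).

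Kif12, linked to cholestatic liver disease in humans (ENSMUSG00000028357; chromosome 4, 63165630 to 63172131, minus strand), fell to 5.80 and 4.27 TPM in shSafb, against 9.17 and 9.83 TPM in shCtrl. The difference was -0.79 ± 0.16 (limma adjusted p = 0.0167), the largest fall of the tested rows on this scale, although Kifc2 fell by more in TPM (2.46-fold, against 1.89-fold for Kif12). It was not called on omitting shCtrl replicate 1 (0.0546) or shCtrl replicate 2 (0.0728). Kif1bp, whose product binds kinesin motors and blocks their hold on microtubules, had 20.0 and 20.3 TPM in shSafb and 24.2 and 24.5 TPM in shCtrl (-0.24 ± 0.06, limma adjusted p = 0.0397). It was not called on omitting shCtrl replicate 1 (limma adjusted p = 0.0676), shCtrl replicate 2 (0.119), shSafb replicate 1 (0.153) or shSafb replicate 2 (0.133). Kif2a, a depolymerase of the same subfamily as Kif2c that also works in interphase, had 13.1 and 9.59 TPM in shSafb and 12.2 and 10.1 TPM in shCtrl, with overlapping groups (0.04 ± 0.17, limma adjusted p = 0.871; 95% interval -0.40 to 0.48). Its sign was the reverse without shCtrl replicate 2 (-0.07) and without shSafb replicate 1 (-0.16). The ciliary kinesins Kif9 (3.43 and 3.98 TPM in shSafb, 4.49 and 4.35 TPM in shCtrl) and Kif6 (0.636 and 1.13 TPM in shSafb, 1.05 and 1.36 TPM in shCtrl) were not called. The 95% interval was -0.49 to 0.12 for Kif9, whose groups did not overlap, and -0.76 to 0.32 for Kif6, whose groups did.

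Kinesins are grouped into numbered subfamilies by the sequence of the motor domain, which the mitotic and transport classes did not use. Of the 13 subfamilies among the members, 5 had both a tested mitotic member and a tested member of another class. In kinesin-3 the mitotic Kif14 was higher while 4 transport members were lower, in kinesin-12 Kif15 was higher and Kif12 lower, and in kinesin-14 Kifc1 and Kifc3 were higher and Kifc2 lower. The calls of Kif12 and Kifc2 each ended on omitting either shCtrl library, that of Kifc3 on omitting any library, and Kifc2 passed the filter on low values through shCtrl, with the adjusted p given above for each. Of the 4 lower kinesin-3 members, only Kif13a kept its call in all 12 alternatives. In kinesin-13, Kif2c was higher and neither Kif2a nor Kif24 was called, and in kinesin-4 Kif4 was higher together with Kif7 and Kif21a. The call of Kif21a was lost in 9 of 12 alternatives. In each of these 5 the mitotic member had the highest log2 difference. Kinesin-6 (Kif20a, Kif20b, Kif23) and the tested kinesin-8 genes (Kif18a, Kif18b) were mitotic and higher throughout.

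**Figure D4:**
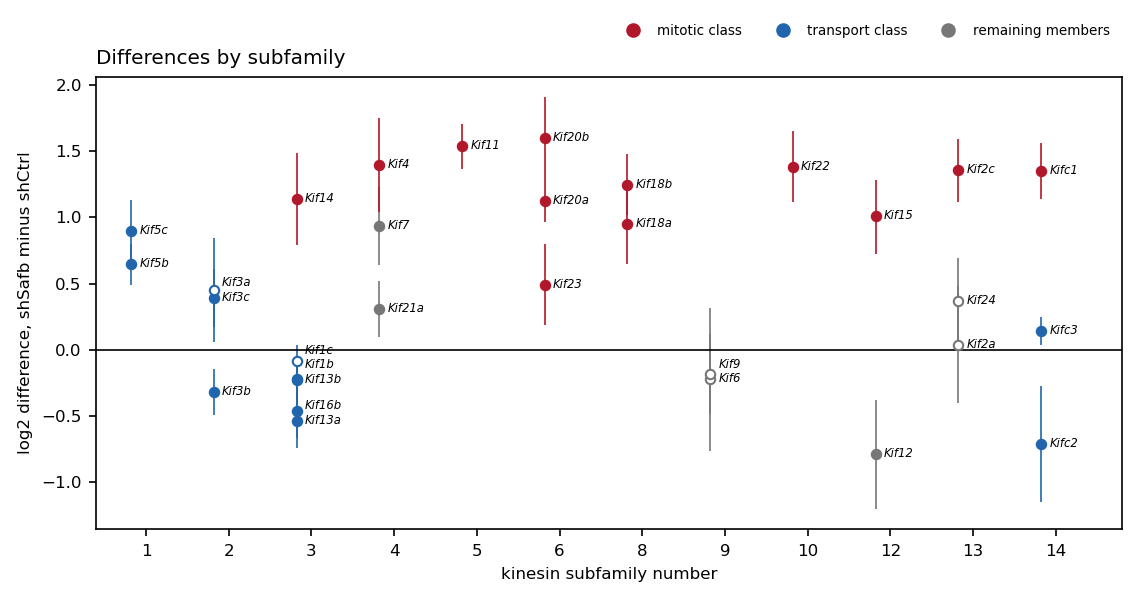
Log2 difference (shSafb minus shCtrl, on log2 of scaled TPM + 1) of each tested motor by subfamily number, with its 95% interval; filled points have an adjusted p under 0.05. In subfamilies 3, 12 and 14 a mitotic member lies above 0 and a member of another class below it.

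Most genes of a list of mitotic partners were higher as well. The list holds general spindle, kinetochore, checkpoint and cytokinesis genes, and not only direct partners of the mitotic kinesins. Of 23 tested partners, 22 were higher in shSafb and 1 lower, with a median log2 difference of 1.02, beside 21.9% higher and 22.4% lower of all tested genes. Hmmr, a microtubule-binding protein of the spindle poles, had 19.8 and 21.2 TPM in shSafb and 6.51 and 6.55 TPM in shCtrl (1.54 ± 0.08, limma adjusted p = 0.000797). Racgap1, the partner of Kif23 in centralspindlin, had 34.6 and 36.1 TPM in shSafb and 14.4 and 12.9 TPM in shCtrl (1.34 ± 0.07, limma adjusted p = 0.000800). Its rise was 2.59-fold, against 1.42-fold for Kif23. Aurka, the kinase that drives spindle assembly, had 28.8 and 27.6 TPM in shSafb and 12.5 and 11.9 TPM in shCtrl (1.17 ± 0.07, limma adjusted p = 0.000863). Cenpe, a kinetochore kinesin that the symbol rule leaves out, had 3.45 and 3.57 TPM in shSafb and 1.28 and 1.23 TPM in shCtrl (1.02 ± 0.12, limma adjusted p = 0.00404). The exception was Numa1, which gathers microtubules at the poles, with 137 and 136 TPM in shSafb and 173 and 164 TPM in shCtrl (-0.28 ± 0.04, limma adjusted p = 0.00671). Cenpe and Numa1 were picked after their values were seen.

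Of a list of 19 cell cycle genes, 13 were higher, 2 lower and 4 not called, with a median of 0.63, beside 21.9% higher and 22.4% lower of all tested genes. Its members with the smallest p were Ccna2, the gene of cyclin A2 (34.1 and 35.6 TPM in shSafb, 11.4 and 11.4 TPM in shCtrl), Ccnb2, of cyclin B2 (40.7 and 42.8 TPM in shSafb, 20.0 and 18.6 TPM in shCtrl), and Top2a, of topoisomerase II alpha (134 and 130 TPM in shSafb, 58.6 and 49.5 TPM in shCtrl). Those called lower were Pcna, the replication clamp gene (97.2 and 94.1 TPM in shSafb, 136 and 137 TPM in shCtrl), and E2f1, of an S phase transcription factor (7.35 and 7.398 TPM in shSafb, 10.8 and 9.03 TPM in shCtrl). The count of genes called lower was 1 without shCtrl replicate 1, shSafb replicate 1 or shSafb replicate 2. Mki67, a marker of dividing cells, had 15.9 and 15.5 TPM in shSafb and 5.29 and 4.37 TPM in shCtrl. The ratio of Kif11 to Mki67 TPM was 1.95 and 1.94 in shSafb and 1.92 and 2.28 in shCtrl, with overlapping groups. Kif11 was the only member so compared and does not stand for the class. Mean TPM was 3.24-fold higher for Mki67 and 3.03-fold for Kif11. The mitotic kinesins ran from 1.42-fold (Kif23) to 3.62-fold (Kif20b), and only Kif20b was above Mki67 in fold. The summed mitotic kinesins were 31.8% and 31.0% of the summed mitotic partners in shSafb and 19.0% and 18.9% in shCtrl, without overlap. The partner sum was 571 and 571 TPM in shSafb and 382 and 377 TPM in shCtrl. Numa1, which fell, gave 136.5 and 136.2 TPM of it in shSafb and 172.6 and 164.5 TPM in shCtrl. This ratio thus holds the fall of Numa1 as well as the rise of the kinesins, and their parts were not separated. Pcna, E2f1 and Mki67 were picked after their values were seen. The part of these cell cycle genes in the kinesin differences was not tested.

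Partners of the transport kinesins were called in both directions. Of 23 tested genes for light chains, adaptors and cargo linkers, Kif1bp among them, 3 were higher, 10 lower and 10 not called, with a median log2 difference of -0.25, beside 21.9% higher and 22.4% lower of all tested genes. The count lower was 6 without shSafb replicate 1. Map7d1, which brings kinesin-1 to microtubules, had 32.0 and 32.4 TPM in shSafb and 56.7 and 53.1 TPM in shCtrl (-0.73 ± 0.05, limma adjusted p = 0.00127). Klc4, a kinesin-1 light chain gene, had 26.4 and 26.6 TPM in shSafb and 43.1 and 44.6 TPM in shCtrl (-0.68 ± 0.06, limma adjusted p = 0.00227). Mapk8ip1, which encodes the kinesin-1 adaptor JIP1, had 14.3 and 14.5 TPM in shSafb and 23.6 and 22.3 TPM in shCtrl (-0.61 ± 0.06, limma adjusted p = 0.00296). These 3 kinesin-1 partners were lower while the heavy chain genes Kif5b and Kif5c were higher, but the list was not of 1 direction. The 3 called higher, picked after their values were seen, included another kinesin-1 adaptor gene, Trak2, which links the motor to mitochondria, at 37.7 and 38.2 TPM in shSafb and 28.9 and 26.2 TPM in shCtrl (0.47 ± 0.06, limma adjusted p = 0.00482). The others were Dlg1, a scaffold bound by Kif13b (70.0 and 71.0 TPM in shSafb, 56.1 and 53.4 TPM in shCtrl), and Madd, an adaptor for kinesin-3 vesicles (9.75 and 8.79 TPM in shSafb, 6.95 and 6.84 TPM in shCtrl).

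**Figure D5:**
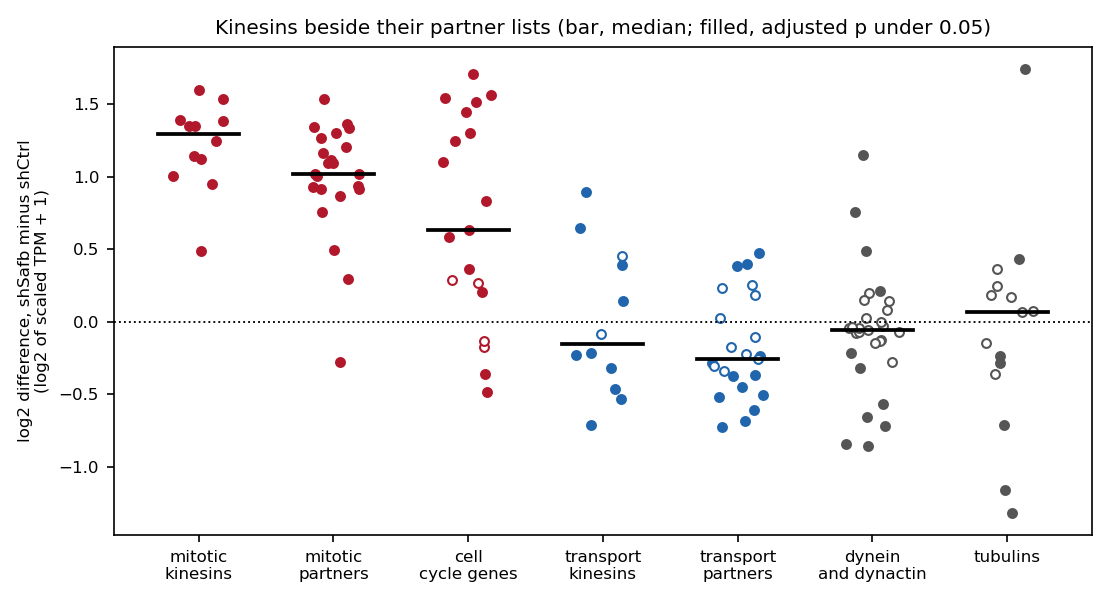
Log2 difference (shSafb minus shCtrl, on log2 of scaled TPM + 1) of each tested gene in the kinesin classes and the partner lists; filled points have an adjusted p under 0.05, bars are medians, and the dotted line is the median of all tested genes. Mitotic kinesins and their partners have medians of 1.30 and 1.02, transport kinesins and their partners -0.15 and -0.25.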

How the data were processed

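Per the labels' protocols, total RNA went through ribosomal RNA depletion into stranded libraries. HISAT2, HTSeq, StringTie and DESeq2 are named with mm10 in the submitters' processing notes, with no version, order or annotation release. The authors' deposited values are TPM, 1 per gene and library. The table has 52200 rows, and rows were added up for 6 identifiers that recur. Coordinates came from GENCODE mouse release 21 (mm10) by identifier, which matched 52045 of 52192.

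Genes with a mean of at least 1 TPM were tested (13111). Libraries were scaled by median ratios; the factors were 0.992 and 0.995 (shSafb) and 1.03 and 0.991 (shCtrl). limma, with group as the only term and a variance trend on intensity, was run two-sided on log2(scaled TPM + 1); residual degrees of freedom were 2 and prior ones 2.61. A call needed a Benjamini-Hochberg adjusted p below 0.05. The gene test was also run on simulated data with far fewer changed genes than were called here, and no conclusion is drawn from that run. Copies were sought with BLAST 2.17.0 (at least 95% identity over 300 bases). Motifs were searched in RefSeq windows.

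The members, classes, lists and tests were chosen with earlier results of these data known. Tested members are named with their values, as are up to 3 called genes with the smallest p of each partner list. Exceptions are marked. Alternatives covered the pseudocount (0.1), the filter, the scaling, the variance model, omission of single libraries, a replicate block and, added after seeing the data, the sum of Kifc1 and Kifc5b. Software was matplotlib 3.10.9, numpy 2.4.6, pandas 2.3.3 and Python 3.11.15, with limma 3.58.1 in R 4.3.3.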

Additional observations from a re-analysis of the deposited data

How the results depend on the processing

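Of 383 values of the 32 tested kinesin rows under 12 alternatives, 319 kept their direction and their side of the threshold, 60 kept the direction but lost the call, 2 gained it and 2, both of Kif2a, were reversed. Kif2a was at -0.07 without shCtrl replicate 2, and omitting shSafb replicate 1 gave its lowest value, -0.16, and omitting shSafb replicate 2 its highest, 0.25. Of 26 called members, 15 kept their call in all 12. The count of mitotic kinesins higher was 11 or 12 in each alternative. When single libraries were left out, transport kinesins higher numbered 2 to 4 and lower 1 to 2, remaining members higher 1 to 1 and lower 0 to 1, and all genes higher 1768 to 2124 and lower 1961 to 2186. With no filter, transport kinesins higher numbered 2, and remaining members 1 higher and 1 lower. Remaining members higher numbered 1 with a mean of at least 0.1 TPM, with no scaling, on omitting small RNA and mitochondrial genes, and in the replicate block fit, and lower numbered 1 without the intensity trend and in the replicate block fit. With the replicate number as a block, 2540 genes were higher and 2686 lower, and 12 mitotic kinesins were higher. The labels give no pairing, and the correlation of deviations between same-numbered libraries was -0.0641, so the block is not a paired analysis of shared cultures. Of 120 counts for the partner lists, 16 moved by over 1.5 times. The causes of these shifts were not tested. Omitting a library changes both which libraries are used and how many, and these cannot be told apart. Depth is unknown, and 2 libraries a group limit the smaller differences.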

Other observations

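Dynein, the motor that walks opposite to most kinesins, is encoded by genes that were called in both directions. Of 30 tested dynein and dynactin genes and activators, 4 were higher in shSafb, 7 lower and 19 not called, with a median log2 difference of -0.06, beside 21.9% higher and 22.4% lower of all tested genes. Without shSafb replicate 1 there were 2 higher and 3 lower, without shSafb replicate 2 there were 2 and 4, and without shCtrl replicate 1 there were 2 higher. Dynlt3, a light chain gene whose product also binds the checkpoint protein Bub3, had 137 and 133 TPM in shSafb against 60.6 and 62.2 TPM in shCtrl (1.15 ± 0.05, limma adjusted p = 0.000744). Spdl1, which brings dynein to kinetochores, had 9.07 and 9.09 TPM in shSafb and 5.24 and 4.85 TPM in shCtrl (0.76 ± 0.09, limma adjusted p = 0.00374). Dctn1, the largest dynactin subunit, fell to 36.8 and 38.3 TPM in shSafb, against 60.2 and 54.1 TPM in shCtrl (-0.57 ± 0.06, limma adjusted p = 0.00326).

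The tubulin genes, which encode the track, were also called in both directions. Of 15 tested, 2 were higher, 5 lower and 8 not called, beside the same shares of all tested genes. The count lower was 3 without shCtrl replicate 1. Tuba1a, an alpha-tubulin gene abundant in developing neurons, had 69.0 and 67.4 TPM in shSafb against 164 and 185 TPM in shCtrl (-1.32 ± 0.09, limma adjusted p = 0.00107). Tubb2b, a beta-tubulin gene, had 11.9 and 12.1 TPM in shSafb and 27.8 and 29.2 TPM in shCtrl (-1.16 ± 0.07, limma adjusted p = 0.00104). Tuba8 was higher, at 3.64 and 4.10 TPM in shSafb and 0.368 and 0.571 TPM in shCtrl (1.74 ± 0.15, limma adjusted p = 0.00203), and passed the filter on low values through its shSafb level. Tubulin genes resemble each other, so reads may be divided among them.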
